A study of Mus musculus with 6 samples.

Results

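The interferon-induced genes described here are 33 mouse genes that cells switch on when an interferon binds its receptor, and they were followed in epididymal white fat, a visceral depot. They were chosen by gene symbol, and each was read from its Affymetrix probe set with the highest mean over the arrays. Of the 33 listed genes, 31 had a probe set that names a single gene, out of 18193 such genes in all. Of these 31, 29 passed the filter on low values (a mean log2 level of at least 4.88) and were tested among 13453 genes. Mx1 and Oas3 lay below the filter, with mean log2 levels of 4.25 and 4.26. Mx1 read 3.73, 4.82 and 3.95 in AFO fat and 4.15, 4.61 and 4.22 in control fat, and Oas3 averaged 4.25 ± 0.16 in AFO fat and 4.27 ± 0.24 in control fat (SD, n = 3 each). The probe set listed for Isg15 also names another gene and was left unnamed, and Ifi44 was not analysed here.

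The design compared 2 genotypes, both in male C57BL/6 mice aged 16 weeks and fed chow without restriction. AFO mice carried FTO flox/flox with Adiponectin-cre, and control mice carried FTO flox/flox alone, so both genotypes share the floxed alleles of Fto, which encodes an RNA demethylase. The adiponectin promoter drives Cre in fat cells, while vessel, stromal and immune cells of the same depot keep the floxed gene. Each genotype was represented by 3 arrays, each made from its own RNA pool, here called AFO 1 to 3 and control 1 to 3. How many mice made a pool is not given in the sources used here, so p-values measure the spread between pools.

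Interferons are cytokines released after viral nucleic acid or other danger signals are sensed. Type I interferon signals through Ifnar1 and Ifnar2, the kinases Jak1 and Tyk2, and a complex with Stat2 and Irf9 that binds the interferon-stimulated response element of target promoters. Type II interferon, made by T and NK cells, acts through Ifngr1 and Ifngr2 and on gamma-activated sites, among others in the promoter of Irf1. In white fat, macrophages, lymphocytes, stromal cells and adipocytes can all respond.

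Facts of the whole series bear on every value below. The array medians of the log2 values lay between 5.35 and 5.43. The first principal component held 67.6% of the variance and set AFO 2 (57.5) and control 2 (37.2) apart from the other 4 arrays (-28.0 to -19.6). Fto averaged 5.84 ± 0.35 in AFO fat and 5.96 ± 0.33 in control fat (SD, n = 3 each), and where its probe set lies relative to the deleted part is not known, so it does not check the genotype. The 9 tested adipocyte markers, among them Adipoq, Lep and Pparg, had mean log2 levels of 11.51 to 12.05 in AFO arrays and 11.80 to 12.00 in control arrays, so genes of fat cells were high on all 6 arrays. The 6 tested skeletal muscle markers, among them Acta1 and Ckm, had list means of 9.82, 12.13 and 4.82 in AFO 1 to 3 and 5.21, 9.78 and 4.63 in control 1 to 3. Muscle genes were thus high on AFO 1, AFO 2 and control 2, which goes against a label of fat alone, and low on both pool 3 arrays. Their part in the members' values was not tested. The equal pool numbers of the genotypes varied together most clearly in pool 2, while muscle genes split pool 1. Values within pools are therefore given beside the pooled ones. In whole tissue, fewer cells of a type and less RNA per cell cannot be told apart.

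Upstream sequences of 7 members are shown because these genes carry the 3 array patterns described below. They come from RefSeq promoter windows of GRCm38.p6, which matched 23 of the 31 members, and end at the base before the annotated start. Capitals mark a match to GAAANNGAAA (or TTTCNNTTTC on the other strand), an interferon-stimulated response element core, or to TTCNNNGAA, the palindromic core of a gamma-activated site. Matches of 1 motif can overlap each other. Psmb8 and Irf1 both read highest in the pool 2 arrays, and each has a gamma-activated core (chr17:34198045-34198194, plus strand, and chr11:53769864-53770013, plus strand, the first of 2 listed starts).
Psmb8: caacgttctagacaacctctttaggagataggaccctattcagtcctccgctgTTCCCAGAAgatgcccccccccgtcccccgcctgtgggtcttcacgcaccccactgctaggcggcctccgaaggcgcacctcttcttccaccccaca
Irf1: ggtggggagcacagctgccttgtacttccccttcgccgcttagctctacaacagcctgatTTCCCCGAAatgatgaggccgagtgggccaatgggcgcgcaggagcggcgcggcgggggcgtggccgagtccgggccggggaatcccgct

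Psmb9 and Tap1, which also stood highest in pool 2, are neighbours transcribed away from each other, with annotated starts 226 bases apart. The stretch between the starts is shown once on the minus strand, as read toward Psmb9 (chr17:34187331-34187555), and neither motif was found in it.
Psmb9 and Tap1: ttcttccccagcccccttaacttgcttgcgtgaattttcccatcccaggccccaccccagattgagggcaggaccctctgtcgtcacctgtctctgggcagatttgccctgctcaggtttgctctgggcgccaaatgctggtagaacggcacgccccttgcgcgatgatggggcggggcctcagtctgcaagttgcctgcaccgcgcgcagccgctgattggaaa

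Ifit1 stood low in pool 2 (chr19:34640739-34640888, plus strand), Bst2 stood low on AFO 3 (chr8:71537473-71537622, minus strand), and Oas1a was the member whose genotypes did not overlap (chr5:120907526-120907675, minus strand). All 3 hold pairs of response element cores. In Bst2 a gamma-activated core also overlaps the first of them, and it is not capitalised separately, nor is a further such core in Oas1a.
Ifit1: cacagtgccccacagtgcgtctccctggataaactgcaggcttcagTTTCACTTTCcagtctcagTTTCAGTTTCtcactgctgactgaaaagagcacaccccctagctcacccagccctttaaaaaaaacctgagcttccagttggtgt
Bst2: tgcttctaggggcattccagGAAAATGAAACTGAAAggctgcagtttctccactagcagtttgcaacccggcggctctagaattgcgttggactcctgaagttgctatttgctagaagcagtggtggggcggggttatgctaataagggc
Oas1a: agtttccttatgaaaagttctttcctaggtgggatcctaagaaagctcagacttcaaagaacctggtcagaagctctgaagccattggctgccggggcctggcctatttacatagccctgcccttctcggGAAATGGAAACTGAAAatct

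Over the 250 bases before the start, GAAANNGAAA was found on either strand in 9 of the 23 members with a window (Stat2, Ifit1, Ifit3, Oas1a, Oas3, Gbp2, Gbp3, Rsad2 and Bst2), and in 3.46% of all 27025 genes in the table. TTCNNNGAA was found in 5 of the 23 (Irf1, Ifit2, Oas1a, Bst2 and Psmb8) and in 8.13% of all genes. Of these, Ifit2, Oas1a and Bst2 did not have both pool 2 arrays above the other 4. A match describes letters only.

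AFO fat was set against control fat to ask whether interferon-induced transcripts differ when fat cells carry a Cre that acts on floxed Fto. The test found no member that differed beyond the spread between pools. With limma, which fits all 13453 genes and adjusts by the Benjamini-Hochberg method, 0 of 29 members passed an adjusted p of 0.05, as did 0% of all genes, and every member had an adjusted p of 0.999999. At an unadjusted p under 0.05 there were also 0 members, beside 1.03% of all genes. With pool number as a block, 0 members passed beside 0.0149% of all genes, and 0 had an unadjusted p under 0.05 beside 4.32%. Of the 29 members 15 were higher and 14 lower in AFO fat, beside 54.3% lower among all genes. This balance rested on single arrays, with 23 higher and 6 lower without AFO 3, beside 54.9% of all genes lower, and 10 higher and 19 lower without AFO 2, beside 45.5%. Their median difference of 0.026 log2 units compared with -0.014 over all tested genes, and it was -0.20 without AFO 2, -0.052 without control 1 and -0.017 without control 3. The size of the differences was also ordinary, with a median absolute value of 0.11 log2 units for members and 0.091 for all genes.

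The precision of this comparison differed by gene. The median standard error was 0.21 log2 units for members and 0.18 for all genes. The narrowest intervals belonged to Oas2, an oligoadenylate synthetase (95% interval from -0.25 to 0.30), and Gbp2, a guanylate binding GTPase (-0.34 to 0.21). The widest belonged to Oasl2 (-1.26 to 1.38), Psmb8 (-1.26 to 1.24) and Zbp1 (-1.36 to 0.73). A fall of 1 log2 unit lies inside all 3 of these intervals, which come from the unpaired fit. Their standard errors were 0.55, 0.52 and 0.44 in that fit, and 0.14, 0.19 and 0.26 with pool number as a block. The lowest interval bound of any member was -1.36 and the highest 1.38.

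**Figure D1:**
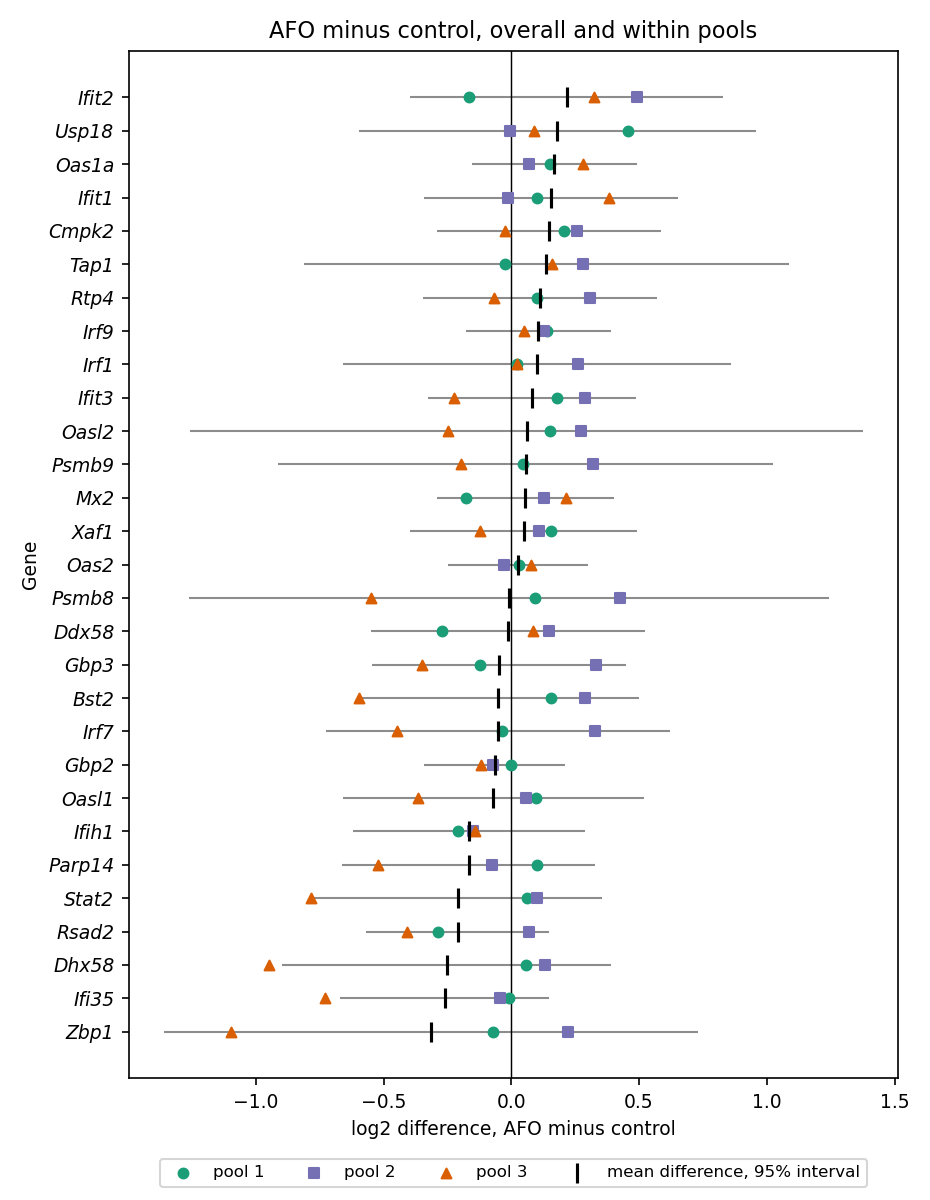
Log2 difference of each of 29 interferon-induced genes (x axis, AFO minus control; genes down the page), with coloured points for pools 1, 2 and 3, a black tick for the mean difference and a grey line for its 95% interval from limma. Every grey line crosses 0, and the pool 3 points reach -1.10 for Zbp1.

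Ligands and receptors came first in the pathway. Of 21 listed interferon genes only 4 passed the filter, 6 lay below it and 11 were not analysed here. Among the 4, Ifnb1, which encodes interferon beta, read 4.90, 4.77 and 5.15 in AFO 1 to 3 and 4.92, 4.87 and 4.75 in control 1 to 3, close to the filter level on every array. Ifna1, an interferon alpha gene, differed by -0.10 (SE 0.28) and Ifnz, a type I interferon gene of mice, by -0.12 (SE 0.35). Ifng, which encodes type II interferon, lay below the filter. Of 12 tested receptor and signal transduction genes 1 was higher and 11 lower in AFO fat, beside 54.3% of all genes lower. Their median difference was -0.07 against -0.014 for all genes, and 0 passed the test. Within pools 1, 2 and 3 AFO was lower in 7, 6 and 11 of the 12, beside 44%, 54.5% and 55.1% of all genes. The type I receptor chains Ifnar1 and Ifnar2 differed by -0.22 (SE 0.20) and -0.11 (SE 0.12), and the type II chain Ifngr1 by -0.20 (SE 0.19).

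The sensors start the response, and all 4 were lower on average in AFO fat, beside 54.3% of all genes, without passing the test. Ifih1 (Entrez gene 71586) encodes MDA5, a sensor of long double-stranded RNA. It read 8.16, 8.02 and 8.50 in AFO 1 to 3, against 8.37, 8.17 and 8.64 in control 1 to 3, a difference of -0.17 (SE 0.19). The differences within pools 1, 2 and 3 were -0.21, -0.15 and -0.14, yet the genotypes overlapped because both followed the pool numbers. Zbp1 (Entrez gene 58203), a sensor of Z-form nucleic acid that can start cell death, read 5.65, 6.50 and 4.73 in AFO fat and 5.72, 6.28 and 5.82 in control fat. AFO 2 was the highest array and AFO 3 the lowest, so the difference of -0.32 (SE 0.44) lay within the AFO spread alone. Ddx58, which encodes the RNA sensor RIG-I, differed by -0.012 (SE 0.22), and Dhx58, a relative that tunes these sensors, by -0.25 (SE 0.27).

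Pathways that switch interferon genes on also run through Toll-like receptors and their adaptors. The list read here holds these and genes of other routes, such as Mavs, Trim25, Sting1 and Cgas. Of the 17 tested genes of the whole list 8 were higher and 9 lower, with a median difference of -0.0048, and 0 passed. Tlr7 senses single-stranded RNA, Tlr3 double-stranded RNA and Tlr4 bacterial lipopolysaccharide. The smallest unadjusted p values belonged to Tlr8 (-0.45, SE 0.23), Tlr4 (-0.31, SE 0.23) and Tlr3 (-0.16, SE 0.14). Within pools 1, 2 and 3 Tlr8 differed by -0.12, -0.14 and -1.10, and Tlr4 by -0.06, -0.01 and -0.84.

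Of the 4 transcription factors 2 were higher and 2 lower in AFO fat, and 0 passed the test. Stat2 (Entrez gene 20847), a subunit of the type I complex, read 6.01, 6.12 and 5.28 in AFO fat, against 5.95, 6.02 and 6.07 in control fat. The control arrays lay close together (SD 0.06, n = 3) and AFO 3 stood below them all, and the difference was -0.21 (SE 0.24). Irf9, its DNA-binding partner, was among the steadiest members, with 7.50 ± 0.07 in AFO fat and 7.39 ± 0.05 in control fat (SD, n = 3 each), and AFO was higher within each pool by 0.05 to 0.14. Irf7, which amplifies interferon alpha production, differed by -0.052 (SE 0.28). Irf1 (Entrez gene 16362), a factor induced above all by type II interferon, read 8.29, 9.23 and 8.34 in AFO fat and 8.27, 8.97 and 8.32 in control fat. Irf1 thus followed pool number, with a difference between genotypes of 0.10 (SE 0.32).

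Usp18 (Entrez gene 24110), a protease that removes ISG15 and blocks the type I receptor, read 6.30, 6.92 and 6.24 in AFO fat and 5.84, 6.92 and 6.15 in control fat. Both pool 2 arrays were highest, and the difference was 0.18 (SE 0.32). The IFIT proteins bind foreign RNA ends and block translation, and all 3 genes were slightly higher on average in AFO fat. Ifit2 (Entrez gene 15958) had the largest difference of the 3, with 6.96, 7.24 and 7.72 in AFO fat and 7.13, 6.74 and 7.40 in control fat, a difference of 0.22 (SE 0.26) that turned negative in pool 1. Ifit1 differed by 0.16 (SE 0.21) and Ifit3 by 0.08 (SE 0.17), and the Ifit3 probe set may also bind a near-identical neighbouring copy.

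The OAS family makes or resembles enzymes that make the second messenger of RNase L. Oas1a (Entrez gene 246730) was the only member whose genotypes did not overlap. It read 7.14, 7.14 and 7.39 in AFO fat and 6.98, 7.07 and 7.11 in control fat, with a difference of 0.17 (SE 0.13, limma adjusted p 0.999999). The gap between the groups was small, and 1 such member of 29 with AFO higher and 0 with AFO lower compares with 2.03% and 1.47% of all genes, 3.5% in all. Oas1a has close paralogs that its probe set may also read. Oasl2 (Entrez gene 23962), an OAS-like protein, read 7.65, 6.37 and 7.62 in AFO fat and 7.50, 6.09 and 7.86 in control fat. Both pool 2 arrays were over 1 log2 unit below the rest, the reverse of Irf1. Its neighbour Oasl1 ran the other way across pools, with a difference between genotypes of -0.07 (SE 0.25).

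Among the antiviral GTPases, Gbp2 (Entrez gene 14469) was nearly flat, with 8.27, 8.22 and 8.30 in AFO fat and 8.28, 8.29 and 8.42 in control fat, a difference of -0.065 (SE 0.11). Gbp3, of the same family, differed by -0.048 (SE 0.21) and Mx2, a dynamin-like GTPase, by 0.054 (SE 0.14). Of the other effectors, Ifi35 (Entrez gene 70110), which encodes an interferon-induced leucine zipper protein, had the highest level and, in the probe set used, the largest difference. It read 9.17, 9.24 and 8.90 in AFO fat and 9.18, 9.28 and 9.63 in control fat, a difference of -0.26 (SE 0.17). AFO 3 was the lowest and control 3 the highest array, and the differences within pools 1 and 2 were -0.007 and -0.043. The other 2 Ifi35 probe sets above the filter differed by only -0.11 and -0.12. Rsad2, which encodes viperin, differed by -0.21 (SE 0.15), and its other 2 probe sets above the filter by -0.26 and -0.27. Its neighbour Cmpk2, a mitochondrial nucleotide kinase, differed by 0.15 (SE 0.18). The 4 remaining effectors, Parp14, Bst2, Xaf1 and Rtp4, differed by -0.17, -0.05, 0.05 and 0.11, with standard errors of 0.19 to 0.23.

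The antigen processing members prepare peptides for MHC class I. Psmb8 and Psmb9 encode proteasome subunits exchanged in under interferon, and Tap1 a subunit of the peptide transporter. Psmb8 (Entrez gene 16913) read 8.06, 9.41 and 7.50 in AFO fat and 7.97, 8.98 and 8.05 in control fat. Tap1 (Entrez gene 21354) read 7.23, 8.27 and 7.09 in AFO fat and 7.25, 7.99 and 6.93 in control fat. In both genes the pool 2 arrays stood above all others, and the genotypes differed by -0.0095 (SE 0.52) and 0.14 (SE 0.40). Psmb9 shared the pattern, with 7.54, 8.67 and 7.35 in AFO fat and 7.49, 8.35 and 7.54 in control fat. Of 17 further genes of antigen processing and presentation 9 were higher and 8 lower in AFO fat, with 0 passing. The smallest unadjusted p values belonged to B2m, the light chain of MHC class I (0.08, SE 0.12), Tap2, the other transporter subunit (-0.18, SE 0.27), and Psmb10, another exchanged proteasome subunit (-0.13, SE 0.21).

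Interferon-induced genes outside the 33 were read from a wider list of 75, of which 58 were tested. Of these 24 were higher and 34 lower in AFO fat, beside 54.3% of all genes lower. The median difference was -0.06, and 0 passed. Ube2l6, the enzyme that passes ISG15 to its targets, had the smallest unadjusted p. It read 5.87, 5.56 and 5.84 in AFO fat and 6.01, 6.07 and 6.18 in control fat, a difference of -0.33 (SE 0.14, limma adjusted p 0.999999). Ube2l6 was the only 1 of the 58 whose groups did not overlap, beside 1.47% of all genes with AFO lower and 3.5% in either direction. AFO was lower in all 3 pools, as in 12.8% of all genes. Ifi27 differed by -0.28 (SE 0.13) and Tor1aip1, which encodes an inner nuclear membrane protein, by 0.21 (SE 0.12).

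**Figure D2:**
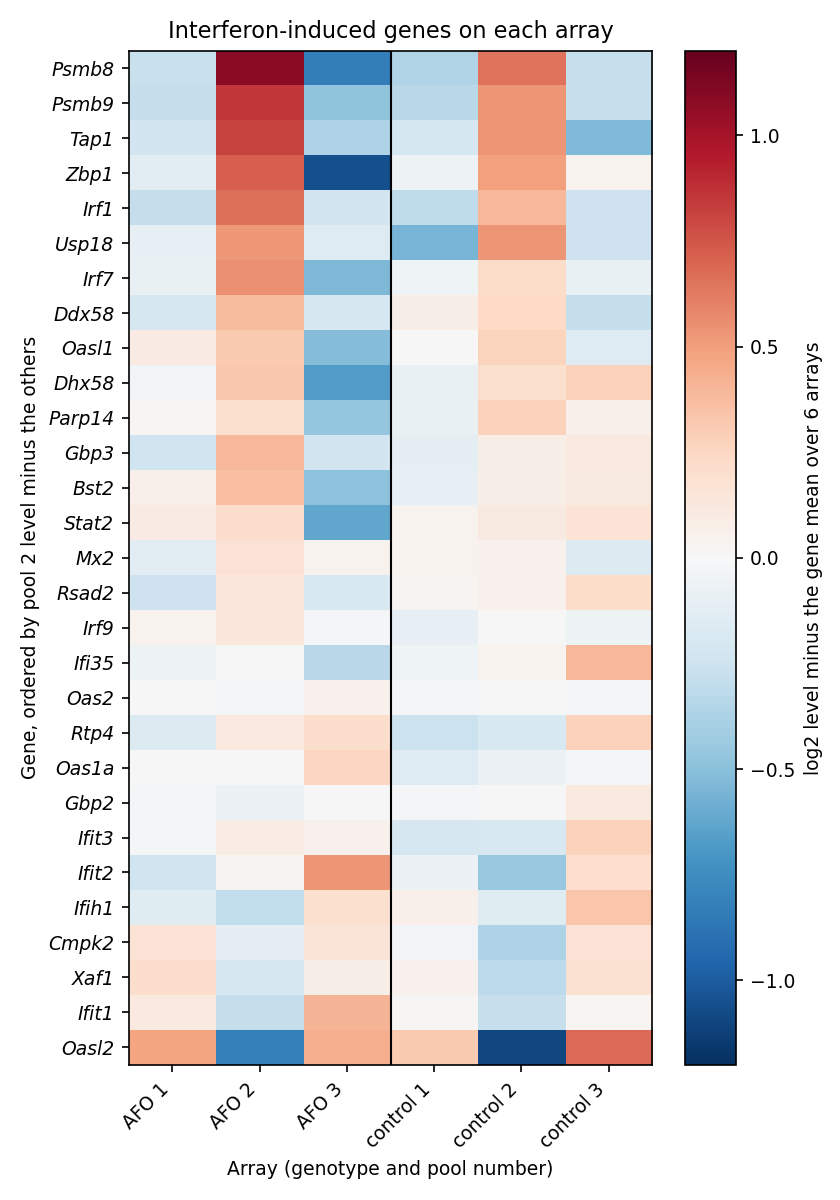
Log2 level minus the gene's own mean over 6 arrays (colour, red above and blue below) for 29 interferon-induced genes (rows) on 3 AFO and 3 control arrays (columns), with rows ordered by pool 2 level minus the others. The top rows are red in AFO 2 and control 2, the bottom row, Oasl2, is blue in both, and AFO 3 is bluest for Zbp1.

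Across arrays, some members stood apart in the pool 2 arrays, more of them high than low, and the others did not. In 11 of 29 members both pool 2 arrays lay above the other 4, beside 18.1% of all genes (Ddx58, Zbp1, Irf7, Irf1, Usp18, Oasl1, Mx2, Parp14, Psmb8, Psmb9 and Tap1). In 4 of 29, Ifit1, Oasl2, Cmpk2 and Xaf1, a pro-apoptotic protein, both lay below, beside 31% of all genes. The mean of the pool 2 arrays minus that of the other 4 was 1.30 for Psmb8, 1.03 for Psmb9, 1.00 for Tap1, 0.91 for Zbp1, 0.80 for Irf1 and 0.79 for Usp18. No IFIT gene was among the 11. At the other end it was -1.43 for Oasl2, -0.42 for Ifit1, -0.38 for Xaf1 and -0.36 for Cmpk2. Second probe sets above the filter did not all go the same way as those used. They stood at 0.74 for Zbp1, 0.017 for Tap1, -0.17 for Ddx58 (0.46 in the one used) and 0.054 for Cmpk2. The median over members was 0.17, against -0.086 for all tested genes. Pool 2 is no group of the study and no test was made of it.

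Neighbouring members did not always share the pattern. Psmb9, Tap1 and Psmb8 lie next to each other in RefSeq order and all stood high in pool 2. Oasl2 and Oasl1 are also next to each other, yet stood at -1.43 and 0.44. Rsad2 and Cmpk2, another adjacent pair, stood at 0.13 and -0.36. Their other probe sets above the filter gave the reverse order, with -0.15 and -0.029 for Rsad2 and 0.054 for Cmpk2. Other genes of antigen presentation went with Psmb8, since 13 of 17 had both pool 2 arrays above the other 4 and 0 had both below. Of the 58 other interferon-induced genes 30 lay above and 6 below. Among all genes 18.1% lay above and 31% below.

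Several marker lists also stood apart in the pool 2 arrays. Over all genes, both pool 2 arrays lay above the other 4 in 18.1% and below them in 31%. Skeletal muscle markers had the largest upward shift of the lists, with a median of 4.87 for pool 2 minus the others, although only 3 of 6 had both pool 2 arrays above the other 4. AFO 1 was high too. All 6 were higher on average in AFO fat, with medians of 2.42 within pool 2 and 0.09 within pool 3 and a larger one within pool 1, and 0 passed the test. All 6 tested B cell markers and 8 of 9 tested T and NK cell markers had both pool 2 arrays above the other 4. The B cell list had mean log2 levels of 5.36, 8.36 and 5.49 in AFO 1 to 3 and 5.78, 7.77 and 5.31 in control 1 to 3. The T and NK cell list had 5.12, 7.25 and 5.09 in AFO fat and 5.29, 7.09 and 5.12 in control fat. Neutrophil markers, 2 of 4 above, had 5.98, 7.84 and 5.64 in AFO fat and 6.13, 7.25 and 6.21 in control fat. The same arrays were thus high for lymphocyte genes and for Psmb8, Psmb9, Tap1 and Irf1. Markers of plasmacytoid dendritic cells, a main source of interferon alpha, had 4 of 6 above and 1, Tcf4, below. Those of other dendritic cells had 3 of 5 above and 1, Zbtb46, below. Macrophage markers had 1 of 10 above and 4 below, close to the shares of all genes. All 6 mesothelial markers were lower in pool 2, with list means of 8.13, 4.74 and 8.18 in AFO fat and 8.31, 5.47 and 8.33 in control fat. Endothelial markers had 7 of 9 below and 0 above, with list means of 8.67, 7.94 and 8.66 in AFO fat and 8.76, 8.22 and 8.93 in control fat. The part of these cell types in the members' pool pattern was not tested.

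**Figure D3:**
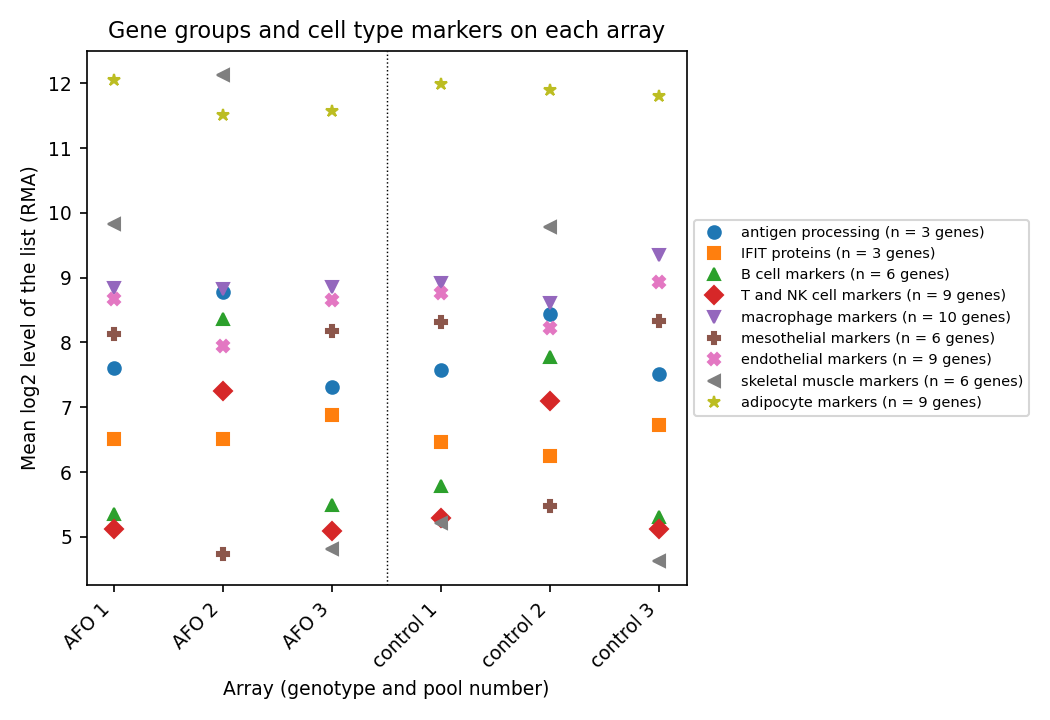
Mean log2 level (y axis) of 2 groups of interferon-induced genes and 7 lists of cell type markers on each of 3 AFO and 3 control arrays (x axis), 1 point per list and array. Antigen processing genes, B cell and T and NK cell markers are highest in AFO 2 and control 2, mesothelial and endothelial markers are lowest there, skeletal muscle markers are high on AFO 1, AFO 2 and control 2, and adipocyte markers stay between 11.51 and 12.05.

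A second pattern concerned AFO 3. In 10 of 29 members the lowest of the 6 values was on AFO 3, beside 19.4% of all genes. These were Dhx58, Zbp1, Stat2, Irf7, Oasl1, Bst2, Parp14, Ifi35, Psmb8 and Psmb9. In 4 of 29, Ifit1, Ifit2, Oas1a and Oas2, the highest value was there, beside 18.8%. The median deviation of the members from their own means was -0.18 on AFO 3 and between -0.062 and 0.17 on the other 5 arrays.

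Within pools, AFO was at least 0.5 log2 units below control in 0 members in pool 1, 0 in pool 2 and 7 in pool 3, beside 1.23%, 3.42% and 6.56% of all genes. The limit of 0.5 serves description only. The 7 were Zbp1 (-1.10), Dhx58 (-0.95), Stat2 (-0.79), Ifi35 (-0.73), Bst2 (-0.60), Psmb8 (-0.55) and Parp14 (-0.52). None of the 29 was higher by as much in any pool, beside 3.81%, 3.51% and 5.94% of all genes. The median member difference was 0.056, 0.13 and -0.14 in pools 1, 2 and 3, against 0.025, -0.023 and -0.038 for all genes. AFO was lower in 11 of 29 members in pool 1, beside 44% of all genes, in 7 in pool 2, beside 54.5%, and in 19 in pool 3, beside 55.1%. With repeated quantile normalisation the count of 7 became 4. AFO was lower in all 3 pools in Ifih1, Gbp2 and Ifi35 and higher in all 3 in Irf9, Irf1 and Oas1a, beside 12.8% and 10.5% of all genes.

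The genes low on AFO 3 were followed further, chosen after their values were seen. Bst2 encodes tetherin, which holds budding virus at the cell surface, and read 7.36, 7.66 and 6.81 in AFO fat, against 7.20, 7.37 and 7.41 in control fat. Parp14, an ADP-ribosyltransferase, read 7.16, 7.35 and 6.69 in AFO fat and 7.06, 7.42 and 7.21 in control fat. Dhx58 read 5.31, 5.67 and 4.67 in AFO fat and 5.26, 5.53 and 5.62 in control fat. In each of these 3 genes AFO 1 and AFO 2 lay within or above the control values, and AFO 3 lay below all of them.

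Other probe sets of the same genes gave a mixed account of pool 3. The second Zbp1 probe set differed by -0.49 in pool 3, the other 2 of Ifi35 by -0.50 and -0.44, and the second of Stat2 by -0.19. One Rsad2 probe set that was not used for the gene differed by -1.17, where the one used differed by -0.41. The other Dhx58 probe sets, both below the filter, differed by 0.45 and 0.01, opposite to the one used. The second Parp14 probe set, also below the filter, differed by 0.11.

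Marker lists were read for the same pool. In pool 3, 9 of 10 macrophage markers, 4 of 5 dendritic cell markers and 4 of 4 neutrophil markers were lower in AFO fat, with medians of -0.30, -0.44 and -0.65, beside 55.1% of all genes. Some lists of other cells were lower as well, with 8 of 9 adipocyte markers (median -0.22) and 8 of 9 endothelial markers (median -0.27). Stromal progenitor, mesothelial, plasmacytoid dendritic cell and skeletal muscle markers each had 3 of 6 lower, with medians of 0.009, -0.13, 0.047 and 0.09. The macrophage list had mean levels of 8.84, 8.83 and 8.85 in AFO 1 to 3 and 8.92, 8.61 and 9.35 in control 1 to 3, so control 3 was the array that stood apart. The neutrophil list was lowest on AFO 3 (5.64), while the B cell and the T and NK cell lists differed by medians of 0.19 and -0.02. The part of these cells in the AFO 3 values was not tested.

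**Figure D4:**
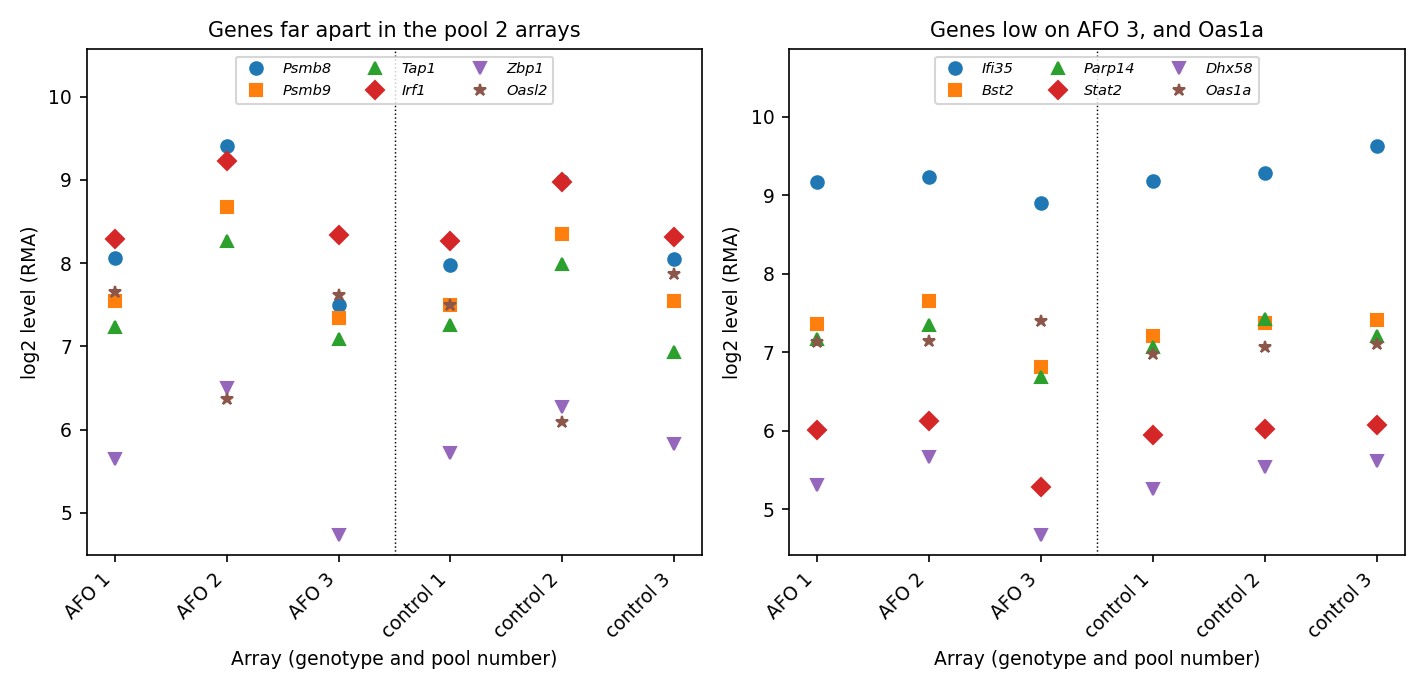
Log2 level (y axis) of 12 interferon-induced genes on each of 3 AFO and 3 control arrays (x axis). Psmb8, Psmb9, Tap1 and Irf1 are highest and Oasl2 lowest on AFO 2 and control 2 (left), while Bst2, Parp14, Stat2 and Dhx58 are lowest on AFO 3 and Oas1a is higher in every AFO array than in any control array (right).

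Without the 2 pool 2 arrays the genotype comparison still named no member. With limma 0 of 29 passed, beside 0.676% of all genes, and 0 had an unadjusted p under 0.05, beside 4.98%. The median member difference was then -0.062. With the block as well, 0 of 29 passed beside 2.01% of all genes, and 3 members, Ifi35 (-0.37), Rsad2 (-0.35) and Zbp1 (-0.58), had an unadjusted p under 0.05, beside 7.74% of all genes. Their limma adjusted p values were 0.644, 0.631 and 0.427. Each genotype then had 2 arrays.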

How the data were processed

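Total RNA was labelled as biotinylated cRNA with a 3' in vitro transcription kit, per the labels' protocols. The authors deposited log2 expression levels, made with RMA in Affymetrix Expression Console 1.4, per the submitters' processing notes, which gives all arrays much the same distribution and hides any shift common to most genes. The genome build behind the probe sets is not given in the sources used here. Of 45101 probe sets 64 were controls, 34945 had 1 gene symbol in the platform annotation, 932 several and 9160 none, and the last 2 kinds were not tested. Of the gene IDs 99.4% matched the RefSeq table (GRCm38.p6), with 0 symbols changed. Probe sets with a mean at or above the 40th percentile of all non-control probe sets (4.88) were kept.

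The genotypes were compared with limma 3.58.1 under R 4.3.3 (lmFit, eBayes with trend), unpaired, with an adjusted p under 0.05 as the threshold. The script was tested on simulated data. The members, gene lists and marker lists were chosen with earlier results of these data known. Values on every array are given for the member of each role with the highest level and the one with the largest difference, and for members with non-overlapping groups or an unadjusted p under 0.05, besides genes singled out after their values were seen. Of other lists the 3 genes with the smallest p are named. The deviations from the genotype means of equal pool numbers correlated at 0.594, 0.799 and 0.589 over genes. Such deviations sum to 0 within a genotype, so an outlying pool 2 by itself makes those of pools 1 and 3 correlate. The correlations therefore cannot show that pools 1 and 3 are pairs. Equal numbers were used as pairs only for the values within pools and for the block. Unequal numbers also correlated, AFO 3 with control 1 at 0.441 and AFO 1 with control 3 at 0.362, while pool 2 correlated below 0 with both other pools, and no label says what equal numbers have in common. The number of arrays limits the precision.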

Additional observations from a re-analysis of the deposited data

How the results depend on the processing

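The 18 alternatives covered the filter, the choice of probe set, scaling, empirical Bayes settings, weights for the arrays, a block for pool number, omission of each array, and omission of both pool 2 arrays with and without the block. The count of members that passed was 0 under all of them. The count over all genes, 0 in the unpaired fit, was 2 with pool number as a replicate block, 91 without both pool 2 arrays and 270 without them and with the block, and ran from 0 to 27 when 1 array was left out (27 without AFO 2). The block changed no call of a member. The median member difference, 0.026, ran from -0.20 (without AFO 2) to 0.060 with 1 array left out, and was -0.0095 with no filter and -0.0090 with array weights, and the cause was not tested. Counts over arrays were varied by choices made after the data were seen. The 7 members at least 0.5 log2 units lower in AFO in pool 3 became 4 with a filter at the 60th percentile, where 24 members were tested, and 4 with repeated quantile normalisation. The 10 members lowest on AFO 3 became 6 with that filter, and the 4 members low on both pool 2 arrays became 7 with median centring. The 11 members high on both pool 2 arrays became 16 with repeated quantile normalisation and 10 with median centring. How far dim genes such as Dhx58 and Zbp1 stood above background was not tested.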
